A study of Mus musculus with 2 samples.

Results

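The interferon-induced transmembrane genes *Ifitm1*, *Ifitm2*, *Ifitm3* and *Ifitm6* were followed through single-cell RNA libraries of mouse skin wounds. These 4 genes were found by symbol among the 31053 gene rows of each count matrix, which held 7 rows with an Ifitm symbol. They were chosen because of their measured values: all 4 are in the marker list that the study made for a *Vcan*-expressing macrophage subset of these cells, and *Ifitm1* was known to differ between the libraries. Their levels in macrophage-like cells are therefore given as a description, without a test. The other family rows, *Ifitm5*, *Ifitm7* and *Ifitm10*, had between 4 and 133 unique molecular identifiers (UMIs, each counting 1 RNA molecule) per library over all barcodes, whereas the 4 genes had between 418 and 220974.

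IFITM proteins are small membrane proteins that are induced by interferons and restrict the entry of many enveloped viruses by hindering fusion of the viral with the cellular membrane. IFITM3 and IFITM2 reside mainly in endosomes and IFITM1 mainly at the cell surface, and *Ifitm6* is a less studied member of the same gene cluster. Interferons act through their receptors and STAT proteins, which bind interferon-stimulated response elements (ISRE) and gamma-activated sites (GAS) near their target genes.

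Each of the 2 libraries was made from live cells of 3 pooled mice, taken with a 10 mm punch from splinted skin wounds 5 days after wounding. Both groups are labelled as *Mrc1*-DTR mice on the C57BL/6 background, aged 7 to 9 weeks. In these mice the *Mrc1* promoter drives the receptor for diphtheria toxin, and the toxin kills any cell in which it is active; *Mrc1* encodes CD206. By the labels 1 group received phosphate-buffered saline (PBS) and the other diphtheria toxin (DTX), whereas the methods describe the control group as wild-type mice given the toxin. With 1 library per group no test between treatments was possible, and differences between mice, captures and treatments cannot be told apart. All intervals are 95% intervals and cover counting error only.

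The library labelled PBS held 12058 barcodes and 105511870 UMIs, and the library labelled DTX held 11031 barcodes and 81858751 UMIs. The study's text assigns these numbers of cells to the groups the other way round, and the libraries are named by their labels throughout. After filtering, 7937 and 6613 cells were kept, with medians of 9570 and 7286 UMIs, and 13 barcodes were present among the kept cells of both libraries. The targeted gene *Mrc1* (chr2:14229392-14332057) was at 65.4 CPM (its UMIs relative to those of all genes, on the usual counts-per-1e6 scale) in the kept cells of the library labelled PBS and at 268 CPM in that labelled DTX. Macrophage-like cells made up 21.6% and 67.2% of kept cells. Within them *Mrc1* was at 491 and 428 CPM, lower in the library labelled DTX. The level over all kept cells thus went against the label, and that over all macrophage-like cells together did not. Within the macrophage states described below, *Mrc1* was higher in the library labelled DTX in each state present in both, except the *Cd9*-like state. It was at 432 and 494 CPM in MHC class II-like cluster 0 and at 704 and 1004 CPM in cluster 3. In the *Cd9*-like state it was at 806 and 291 CPM, the former from 7 cells. The study describes a larger share of immune cells in the toxin-treated *Mrc1*-DTR wounds, and larger *Vcan*, *Ccl7* and *Cd9* macrophage subsets. Macrophage-like cells, and the states named after these genes, were more numerous in the library labelled DTX.

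The 4 genes lie within 63088 bases of chromosome 7 (GRCm38, GENCODE vM21). *Ifitm2* (ENSMUSG00000060591, chr7:140954837-140955987) is followed by *Ifitm1* (ENSMUSG00000025491, chr7:140967221-140969825), *Ifitm3* (ENSMUSG00000025492, chr7:141009586-141010770) and *Ifitm6* (ENSMUSG00000059108, chr7:141015699-141017924). *Ifitm1* is on the plus strand and the other 3 are on the minus strand. Annotated transcripts of different members shared no stretch of 90 bases, but 40 of the stretches of 30 bases were common to *Ifitm2* and *Ifitm3* and 37 to *Ifitm1* and *Ifitm3*. *Ifitm6* shared none with the others. The predicted gene *Gm45717* overlaps *Ifitm2* on the same strand, and its row had 0 UMIs in both libraries. The 250 bases before the RefSeq start of each gene (GRCm38.p6) are shown because the members moved together in several cell classes but not alike, with matches to the ISRE core (GAAANNGAA) or GAS (TTCNNNGAA), searched on both strands, in capitals:
*Ifitm1*, chr7:140967826-140968075, plus strand: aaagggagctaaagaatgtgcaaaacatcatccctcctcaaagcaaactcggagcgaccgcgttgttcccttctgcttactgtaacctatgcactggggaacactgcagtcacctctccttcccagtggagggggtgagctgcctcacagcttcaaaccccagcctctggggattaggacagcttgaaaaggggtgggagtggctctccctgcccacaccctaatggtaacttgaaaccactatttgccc
*Ifitm2*, chr7:140955962-140956211, minus strand: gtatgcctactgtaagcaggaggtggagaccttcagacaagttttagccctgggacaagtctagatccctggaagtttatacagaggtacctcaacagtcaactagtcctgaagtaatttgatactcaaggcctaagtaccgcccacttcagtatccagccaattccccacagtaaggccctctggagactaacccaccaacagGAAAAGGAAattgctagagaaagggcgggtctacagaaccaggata
*Ifitm3*, chr7:141010745-141010994, minus strand: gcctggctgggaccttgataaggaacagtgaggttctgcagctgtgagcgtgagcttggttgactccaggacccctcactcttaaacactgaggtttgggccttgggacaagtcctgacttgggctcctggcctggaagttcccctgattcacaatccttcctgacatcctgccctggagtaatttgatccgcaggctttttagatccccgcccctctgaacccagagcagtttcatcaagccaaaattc
*Ifitm6*, chr7:141016893-141017142, minus strand: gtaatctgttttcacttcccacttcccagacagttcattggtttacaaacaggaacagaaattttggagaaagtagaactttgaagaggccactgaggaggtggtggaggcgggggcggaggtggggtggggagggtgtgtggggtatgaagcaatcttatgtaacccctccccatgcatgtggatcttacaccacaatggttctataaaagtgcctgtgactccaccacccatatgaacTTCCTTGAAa

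The search window ran from 250 bases before to 50 bases after each start. *Ifitm2* had 1 ISRE core, beginning 46 bases before its start, and *Ifitm6* had 1 GAS, beginning 10 bases before its start. The window of *Ifitm3* held 2 ISRE cores and 1 GAS, all within the first 50 bases after the start, and the GAS overlapped the second ISRE core by 3 bases. These matches are shown with their neighbouring bases, the first base of the match being base 3, 20 and 14 after the start:
*Ifitm3* first ISRE core: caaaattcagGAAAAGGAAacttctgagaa
*Ifitm3* second ISRE core: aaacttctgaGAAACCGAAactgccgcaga
*Ifitm3* GAS: aaaaggaaacTTCTGAGAAaccgaaactgc

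The window of *Ifitm1* held neither set of letters. The printed bases of *Ifitm1* and *Ifitm6* lie within the GENCODE spans of these genes given above. Starts of their other annotated transcripts were not searched. Of 32851 RefSeq promoter windows of the same length, 8.56% held an ISRE core and 8.30% a GAS. Of 22 genes with such windows in a list of type I interferon-stimulated genes, 14 held an ISRE core and 5 a GAS in any of their windows. This is a count of genes, and the former shares are counts of windows. A match is a set of letters and not a measured binding site.

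Cells were grouped by clustering from which every Ifitm row had been left out, and clusters were named by marker genes. Because UMIs are counted at the 3′ end, once per molecule, CPM values of different genes can be set side by side without a correction for length. The members were expressed in different cells. Orders are given among classes with at least 50 cells, and mast-like cells, of which there were 34 and 19, had 5153 and 2065 CPM of *Ifitm1*. *Ifitm1* was highest in neutrophil-like cells in both libraries, at 3359 CPM (3105 to 3628) in the library labelled PBS and at 5780 CPM (5641 to 5920) in that labelled DTX. Dendritic-like cells followed at 420 and 1971 CPM and pericyte-like cells at 312 and 882 CPM. Macrophage-like cells stood below fibroblast-like cells in the library labelled PBS, at 54.4 CPM (49.6 to 59.7) against 64.6 CPM. They stood above them in that labelled DTX, at 707 CPM (698 to 717) against 119 CPM. NK or T-like, endothelial-like and epithelial-like cells had at most 51.1 CPM, and their neighbours in that order overlapped in part.

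Among the same classes, *Ifitm2* was also highest in neutrophil-like cells, at 4084 and 5048 CPM in the libraries labelled PBS and DTX. It was more evenly spread than *Ifitm1* over the other classes, with 1357 and 2355 CPM in macrophage-like, 1210 and 2299 CPM in dendritic-like and 1119 and 1385 CPM in fibroblast-like cells. Macrophage-like and dendritic-like cells overlapped in the library labelled DTX, as did endothelial-like, fibroblast-like and pericyte-like cells, at 1427, 1385 and 1377 CPM. The lowest level was that of NK or T-like cells, at 153 and 251 CPM.

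*Ifitm3* had another order and led in cells of the vessel wall. Endothelial-like cells had 2797 and 4077 CPM and pericyte-like cells 2775 and 4140 CPM, and these 2 classes overlapped in both libraries. Macrophage-like cells came next, at 2161 CPM (2130 to 2193) and 3722 CPM (3700 to 3743). Neutrophil-like cells, which led these classes for *Ifitm1* and *Ifitm2*, had only 1646 and 2547 CPM of *Ifitm3*. NK or T-like cells were again lowest, at 109 and 152 CPM.

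*Ifitm6* was the rarest member and was rare outside myeloid classes. It was at 77.6 CPM (43.5 to 128) and 240 CPM (212 to 270) in neutrophil-like cells, at 30.02 and 126 CPM in macrophage-like cells and at 7.32 and 52.3 CPM in dendritic-like cells. All other classes with at least 50 cells had at most 6.55 CPM, and 0 UMIs were counted in the endothelial-like and pericyte-like cells of the library labelled PBS. Macrophage-like cells held 73.5% of its UMIs in the library labelled PBS and 86.6% in that labelled DTX.

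**Figure D1:**
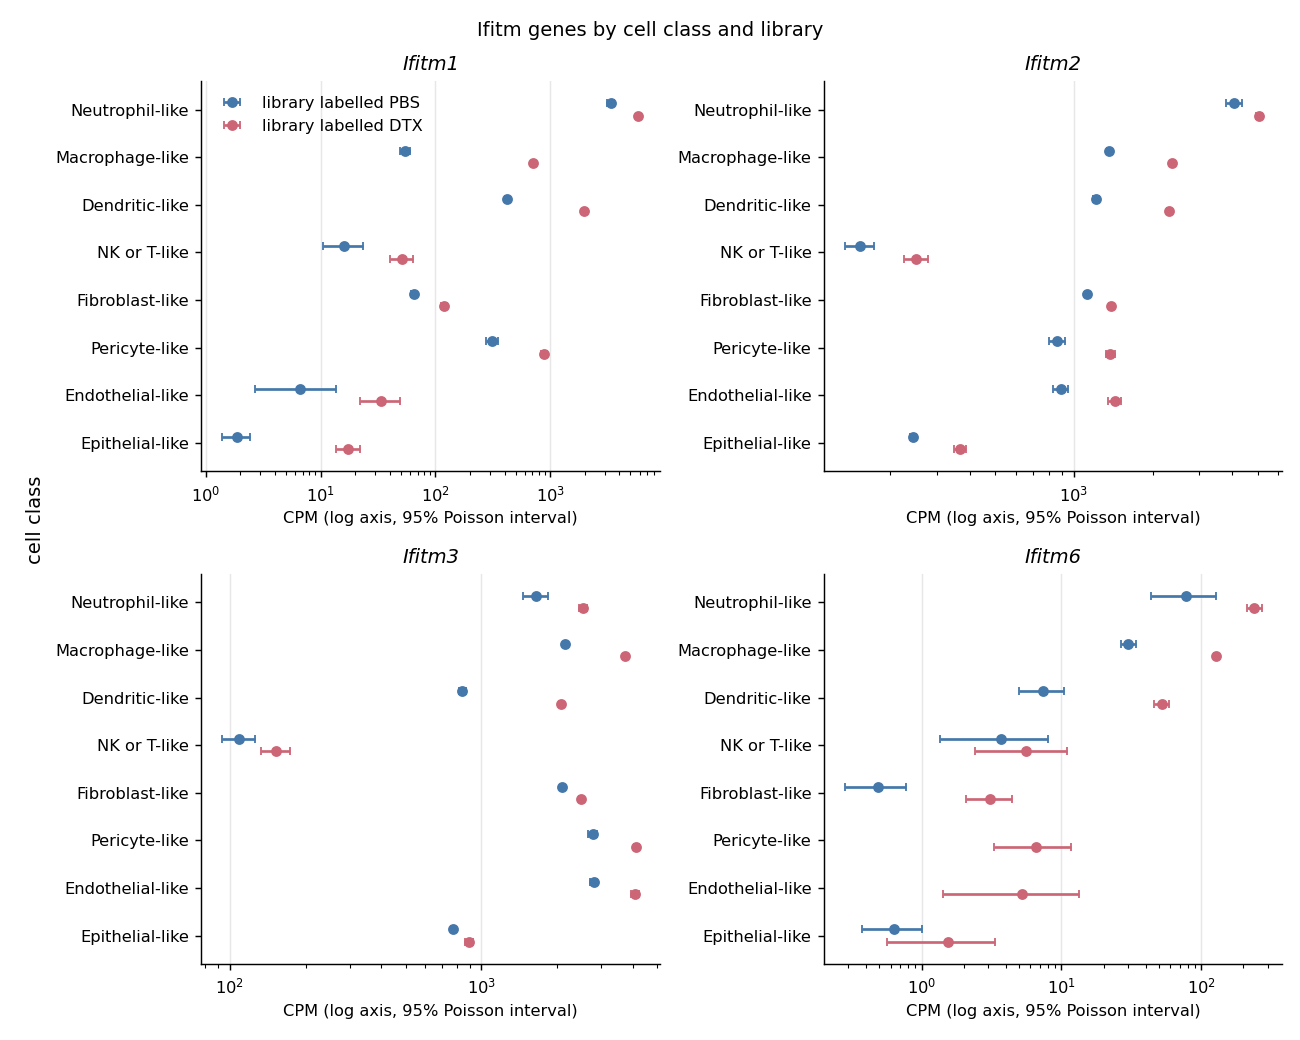
Level of each gene in 8 cell classes in CPM on log axes that differ between panels, with points for the libraries labelled PBS (blue) and DTX (red) and bars for 95% Poisson intervals. Classes without a UMI are not drawn. Among these classes, *Ifitm1* and *Ifitm2* are highest in neutrophil-like cells, *Ifitm3* in endothelial-like and pericyte-like cells, and every red point lies to the right of its blue point.

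The 4 genes were higher in the library labelled DTX in each of the 8 classes with at least 50 cells in both libraries, but by very different amounts. For *Ifitm6* the interval of the ratio included 0 in NK or T-like, epithelial-like and endothelial-like cells. A log2 ratio of at least 1, after adding 1 CPM, was used to count differences, among genes with at least 50 UMIs over both libraries. In dendritic-like cells *Ifitm1* (2.23), *Ifitm6* (2.68) and *Ifitm3* (1.30) passed this limit and *Ifitm2* (0.93) did not. That is 3 of 4 members against 1.03% of all genes. Most dendritic-like cells were in a cluster that also had macrophage markers raised, described below. In macrophage-like cells 2 of 4 passed, *Ifitm1* and *Ifitm6*, against 1.58% of 10174 genes, and the members were selected with this contrast known. No member had a ratio of at most -1 there, against 3.3% of all genes.

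In neutrophil-like cells 1 of 4 passed, *Ifitm6* with 1.61, where 5.96% of all genes did. *Ifitm1* had a ratio of 0.78 and *Ifitm2* of 0.31 in these cells, which were few and shallow, with 129 and 461 cells and medians of 1229 and 1922 UMIs. The sum of 10 neutrophil markers had a log2 ratio of 1.07 in these cells. In pericyte-like cells 1 of 3 measured members passed, *Ifitm1* with an interval of 1.31 to 1.69, against 2.22% of genes. In NK or T-like cells 1 of 3 did, *Ifitm1* with 1.61 from 26 and 73 UMIs, against 1.23%. This rested on a cluster of 41 and 29 cells with 0 and 31 of these UMIs. In the larger cluster of 183 and 123 cells the ratio was 0.84. A UMI of *Ifitm1* was found in 6.25% (3.46 to 10.3) and 8.55% (4.63 to 14.2) of all NK or T-like cells, with overlapping intervals. In epithelial-like cells 1 of 3 did, *Ifitm1* from 53 and 68 UMIs, against 2.69%. Neutrophil markers moved in the same direction in these classes. The summed level of 10 of them was 71.7 and 274 CPM in NK or T-like and 140 and 534 CPM in epithelial-like cells, although wound keratinocytes express *S100a8* and *S100a9* themselves. *Retnlg*, a resistin-like gene of neutrophils, had 0 and 6 UMIs in NK or T-like and 0 and 7 in epithelial-like cells. The 10 macrophage markers summed to 610 and 470 CPM in NK or T-like and to 129 and 507 CPM in epithelial-like cells. The part of free RNA in the *Ifitm1* counts of these 2 classes was not tested.

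No member passed in fibroblast-like or endothelial-like cells. Of 3 members measured in fibroblast-like cells none passed, against 2.63% of genes, and of 2 measured in endothelial-like cells none passed, against 1.84%. In fibroblast-like cells the ratios were 0.87 for *Ifitm1*, 0.31 for *Ifitm2* and 0.25 for *Ifitm3*. Within them, *Ifitm1* went from 54.7 to 164 CPM in a cluster led by *Ctsk*, the collagenase cathepsin K, and *Dcn*, the matrix proteoglycan decorin. It was at 80.9 and 89.4 CPM in a cluster led by *Mfap5*, an elastic-fibre protein, and *Prg4*, the joint lubricant lubricin. The interval of the ratio included 0 there (-0.01 to 0.30). Dendritic-like cells were also unequal. *Ifitm1* was at 465 and 1778 CPM in a cluster of 349 and 355 cells led by *Ccr7* and *Ccl22*, a receptor and a chemokine of migrating dendritic cells. Its leading genes also held *Mgl2* and *Cd209a*, and 8 of 11 dendritic and 8 of 10 macrophage markers were raised in it. At the class resolution of 0.4, a cluster led by *Ccl22* and *Ccr7* had only 78 and 64 cells. Another dendritic-named cluster, of 354 and 436 cells, had 6 of 11 dendritic and 10 of 10 macrophage markers raised there. *Ifitm1* was at 318 and 2602 CPM in a cluster led by *Cst3* and MHC class II genes that also carried the proliferation gene *Pclaf*.

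The classes that held the members' RNA differed between libraries, in which both class sizes and levels within classes differed. Macrophage-like cells held 7.09% of all *Ifitm1* UMIs in the library labelled PBS and 52.6% in that labelled DTX. They held 17.2% and 66.5% of *Ifitm2* UMIs, and 14.8% and 68.9% of *Ifitm3* UMIs. Fibroblast-like cells held 35.0% and 2.80% of *Ifitm1* UMIs and 59.5% and 14.6% of *Ifitm3* UMIs. Over all kept cells, *Ifitm1* was at 79.4 and 753 CPM, *Ifitm2* at 815 and 1980 CPM, *Ifitm3* at 1514 and 3018 CPM and *Ifitm6* at 4.23 and 81.5 CPM.

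In macrophage-like cells the 4 genes fell into a pair with a large and a pair with a modest difference. *Ifitm1* had 457 UMIs in the 1712 cells of the library labelled PBS and 21705 UMIs in the 4441 cells of that labelled DTX, a ratio of 12.8-fold or 3.68 on the log2 scale (3.57 to 3.84). It ranked 2 among 10174 genes ordered by this ratio. *Ifitm6* had 252 and 3874 UMIs, a log2 ratio of 2.04 (1.89 to 2.26) and rank 16. *Ifitm2*, with a log2 ratio of 0.80 (0.77 to 0.82), and *Ifitm3*, with 0.78 (0.76 to 0.81), were much more abundant and ranked 306 and 312. Over all genes the median of the log2 ratios was 0.06. The 4 genes together rose from 3602 to 6910 CPM, and *Ifitm1* made up 1.51% of this sum in the library labelled PBS and 10.2% in that labelled DTX.

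After every cell had been thinned to 2000 UMIs, 1490 and 4303 macrophage-like cells remained, and 222 and 138 shallower cells were left out. A UMI of *Ifitm1* was then found in 7.52% (6.23 to 8.97) of cells of the library labelled PBS and in 37.4% (35.9 to 38.8) of those labelled DTX, against 13.3% and 52.2% before thinning, at median depths of 4722 and 6731 UMIs. Epithelial-like cells, which should express little of it, gave 0.295% and 1.31% after thinning, at median depths of 12596 and 16070 UMIs before it. *Ifitm6* was found in 5.70% and 15.8% of macrophage-like cells, and before thinning in 8.29% and 31.3%. In epithelial-like cells the thinned share of *Ifitm6* was 0.0985% in the library labelled PBS, and 0 of 229 cells had a UMI in that labelled DTX, which allows a share of up to 1.31%.

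*Ifitm2* and *Ifitm3* were found in nearly all macrophage-like cells. The thinned shares were 84.2% and 93.5% for *Ifitm2* and 85.8% and 93.9% for *Ifitm3*. Among single cells, *Ifitm1* formed a long tail in the library labelled DTX: 9.90% of thinned cells had 5 or more UMIs and the highest had 29, whereas in the library labelled PBS 0.268% had 5 or more and the highest had 6. The same limit of 5 UMIs was reached for *Ifitm3* by 38.2% and 64.0% of cells. *Ifitm6* was found more often in cells with than without *Ifitm1* in the library labelled DTX, where 23.2% of cells with an *Ifitm1* UMI also had one of *Ifitm6*, against 11.4% of cells without. In the library labelled PBS these shares were 8.93% and 5.44%. The pairs are given as a description, since cells of 1 library are not replicates.

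Macrophage-like cells were then split into 8 states. The libraries filled different states, as most macrophage-like cells of the library labelled PBS were in an MHC class II-like state (cluster 0, 817 cells) and in cluster 3 (604 cells; 342 in that labelled DTX). Cluster 3 had 5 of 6 *Klf2* markers raised, but it is left unnamed. Its leading genes were the chemokine gene *Ccl8*, the heat shock genes *Hspa1a* and *Hspa1b*, *Lpl* and *Igf1*. It was the shallowest state, with medians of 2882 and 4970 UMIs. With states clustered more finely, 203 and 89 cells formed an unnamed cluster led by *Dcn* and *Col3a1*, at a depth of 0.165 of the library median. The part of other cells' RNA in the levels of cluster 3 was not tested. In the library labelled DTX the largest states were *Vcan*-like (1102 cells), *Cd9*-like (994 cells, led by *Arg1*) and *Ccl7*-like (811 cells), of which the library labelled PBS had 39, 7 and 123 cells. Another MHC class II-like state (cluster 5, with *Il1r2* and *Il1b* among its leading genes) had 57 and 605 cells, an *Ifit1*-like state of interferon-stimulated genes 65 and 108, and an unnamed state led by *Ctsk* and *Acp5*, genes of bone-resorbing cells, 0 and 54.

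*Ifitm1* was highest in the *Vcan*-like state of the library labelled DTX, at 1186 CPM, followed by the *Cd9*-like state at 972 CPM and MHC class II-like cluster 5 at 779 CPM. It was higher in the library labelled DTX in all 7 states present in both, with every interval above 0. The log2 ratio was 3.41 in the *Vcan*-like state (111 and 1186 CPM), 2.57 in cluster 3 (21.6 and 133 CPM), 2.37 in the *Ccl7*-like state (44.9 and 236 CPM), 1.96 in the *Ifit1*-like state (96.1 and 376 CPM), 1.80 in MHC class II-like cluster 5 (223 and 779 CPM) and 0.94 in cluster 0 (51.6 and 100 CPM). In the *Cd9*-like state the library labelled PBS gave 0 UMIs in 7 cells, and no ratio is given. The ratio of the *Vcan*-like state rests on 25 UMIs in 39 cells of the library labelled PBS. With states clustered more finely, a cluster named *Vcan* had 29 and 748 cells. Another with this name, led by *Ccl24* and *Arg1*, had 3 and 406 cells. The mix of cells within a state can thus differ between libraries.

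*Ifitm6* levels differed by state. In the *Vcan*-like state it was at 310 CPM in the library labelled PBS and 327 CPM in that labelled DTX, a log2 ratio of 0.08, and it was found in 43.6% and 40.0% of thinned cells. All other states had at most 107 CPM. The largest ratio between libraries in a state with at least 20 cells in each was that of the shallow cluster 3. It was 1.98 (1.27 to 3.11) from 14 and 51 UMIs. The interval was above 0 in the *Ccl7*-like state as well and included 0 in the other 4. Within the library labelled DTX, the *Vcan*-like state exceeded the other macrophage-like cells 327 to 52.7 CPM for *Ifitm6*, a log2 ratio of 2.61. For *Ifitm1* it did so 1186 to 532 CPM, a log2 ratio of 1.15. The members were chosen from the study's *Vcan* marker list, so high levels in this state are a description and not a test. The *Cd9*-like state set the 2 genes apart: *Ifitm1* was above the other cells, at 972 against 642 CPM, and *Ifitm6* was below, at 28.4 against 150 CPM, as were *Ifitm2* (-0.66) and *Ifitm3* (-0.76).

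*Ifitm3* was highest in the states of interferon-stimulated and *Vcan*-like cells, at 5149 and 5830 CPM in the *Ifit1*-like and at 5523 and 5717 CPM in the *Vcan*-like state of the libraries labelled PBS and DTX. The ratio in the *Vcan*-like state was 0.05 (-0.03 to 0.13). It was largest among states with at least 20 cells in each library in the shallow cluster 3, where *Ifitm3* was at 1164 and 2096 CPM (0.85). *Ifitm3* was lower in the library labelled DTX in 1 state, MHC class II-like cluster 0, with 2081 and 1940 CPM, but with states clustered more finely it was higher in 12 of 12. *Ifitm2* followed *Ifitm3* loosely, was highest in the *Vcan*-like state at 3164 and 3517 CPM, and had a ratio of 0.11 in MHC class II-like cluster 0 (1349 and 1455 CPM).

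**Figure D2:**
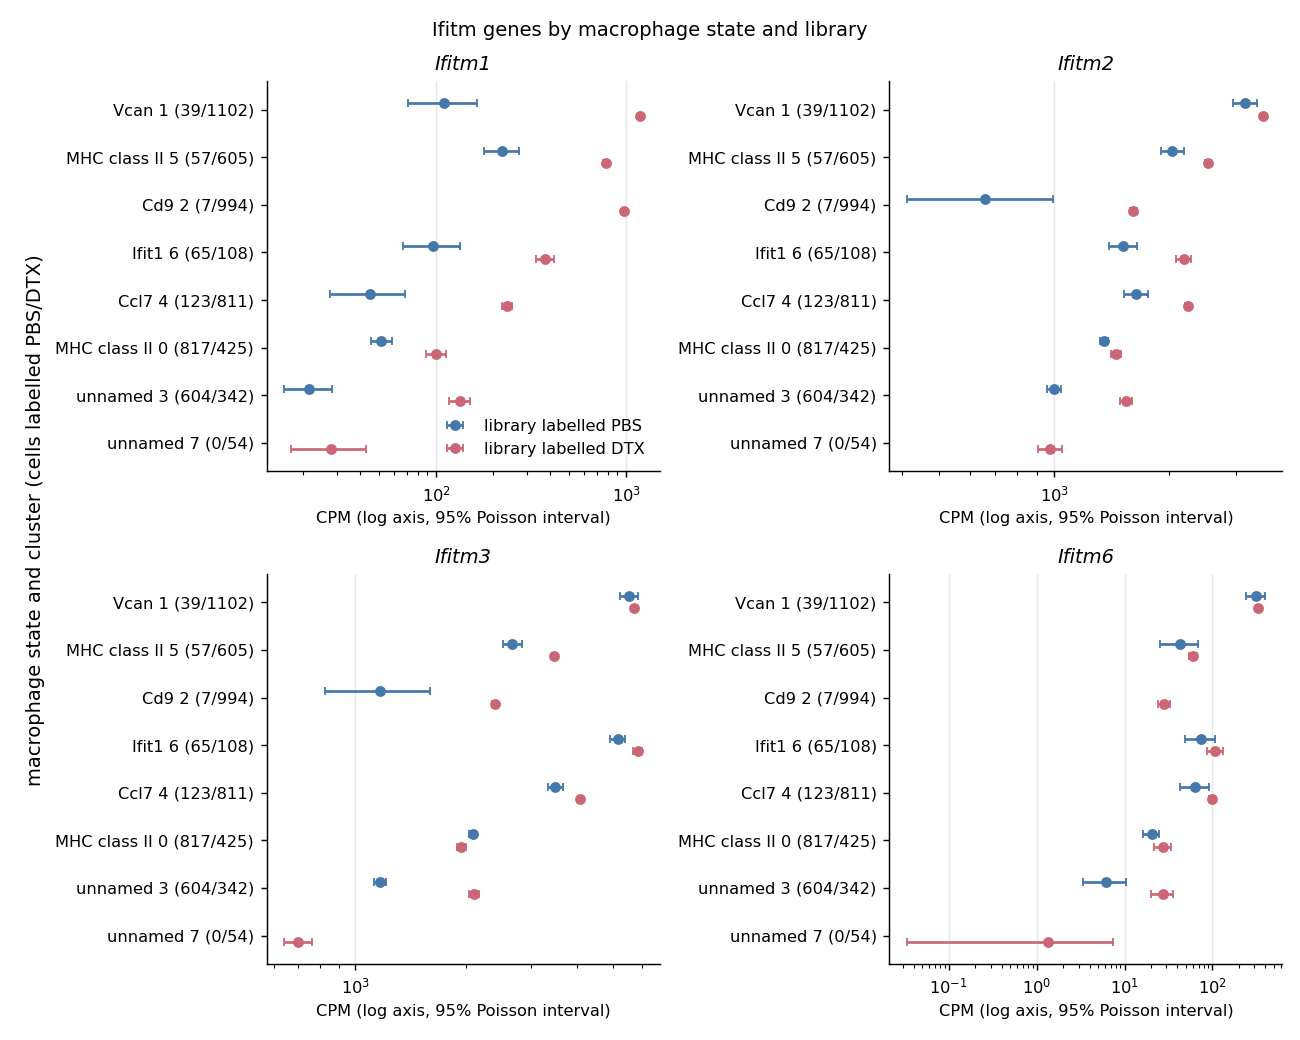
Level of each gene in 8 states of macrophage-like cells in CPM on log axes that differ between panels, with the cluster number after each name, cells of the libraries labelled PBS and DTX in brackets and 95% Poisson intervals as bars. States without a UMI are not drawn. The red points of *Ifitm1* lie far to the right of the blue points in most states, whereas those of *Ifitm3* and *Ifitm6* lie close to them in the *Vcan*-like state.

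The mix of states was then held fixed, an alternative chosen after the data had been seen. With the 7 shared states weighted as in the library labelled PBS, the log2 ratio of *Ifitm1* was 1.81, and weighted as in that labelled DTX it was 3.08, against 3.68 unweighted. For *Ifitm6* these ratios were 0.54 and 0.27, against 2.04. For *Ifitm2* they were 0.29 and 0.37 and for *Ifitm3* 0.18 and 0.25, against 0.80 and 0.78. Without the *Cd9*-like state, whose level in the library labelled PBS rests on 7 cells, the values weighted as in the library labelled DTX were 2.62 for *Ifitm1*, 0.26 for *Ifitm2*, 0.16 for *Ifitm3* and 0.20 for *Ifitm6*. The unweighted ratios above also include the state found only in the library labelled DTX. Over the 7 shared states alone they were 3.71, 0.82, 0.81 and 2.07 for these genes in the same order. Without the *Cd9*-like state as well they were 3.57, 0.93, 0.94 and 2.33.

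**Figure D3:**
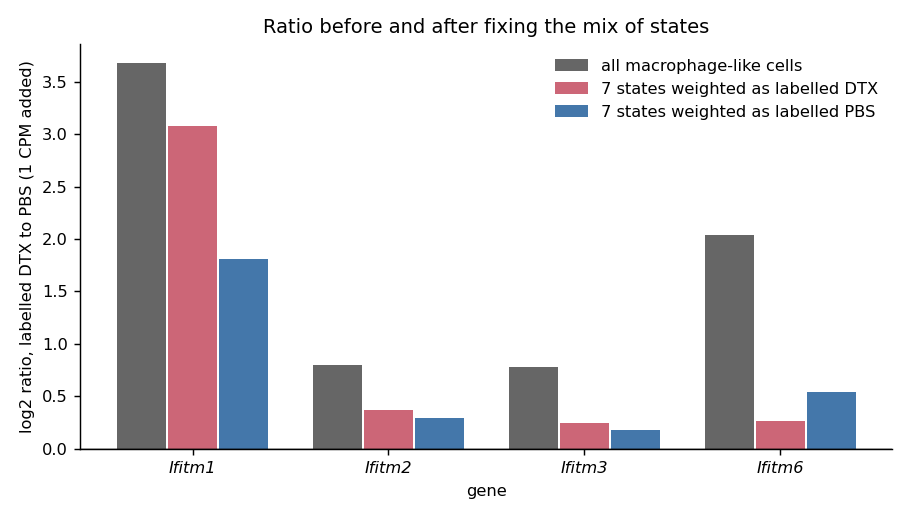
Log2 ratio of the library labelled DTX to that labelled PBS in macrophage-like cells for each gene, as measured (grey) and with the 7 shared states weighted as in the library labelled DTX (red) or PBS (blue); bars are single values without replicates. Grey bars also include the state found only in the library labelled DTX. *Ifitm1* is at 3.68 in grey and at 1.81 and 3.08 in blue and red, and *Ifitm6* at 2.04 and at 0.54 and 0.27.

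Cells were also ordered without clusters, by the summed UMIs of other genes after thinning. The members were chosen from the study's *Vcan* marker list, so a rise along *Vcan* genes is a description and not a test. Along the 7 genes of the *Vcan* list, markers of monocyte-like cells, *Ifitm1* in the library labelled DTX was at 76.2 CPM in cells with 0 UMIs of the list, at 215 with 1 to 2, at 341 with 3 to 5 and at 845 with 6 or more. In the library labelled PBS the same bins gave 13.7, 18.9, 62.5 and 91.6 CPM. Levels of *Ifitm1* were thus lower in the library labelled PBS within each bin. The list holds *Il1b*, at 1768 and 3478 CPM in macrophage-like cells, which is also among the leading genes of MHC class II-like cluster 5. *Ifitm6* was at 7.62, 20.8 and 35.7 CPM in the first 3 bins of the library labelled PBS and at 6.73, 11.0 and 38.5 CPM in those of that labelled DTX, with intervals that overlapped in each bin. In cells with 6 or more it was at 57.5 and 150 CPM. This last bin has no upper limit, so its cells can differ between libraries in their UMIs of the list.

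Along the C1qa list, complement and resident macrophage markers, the members were lower in cells with more UMIs of the list. In the library labelled DTX *Ifitm1* was at 1108 CPM in cells with 0 UMIs of this list and at 238 CPM in cells with 6 or more, *Ifitm6* at 189 and 41.5 CPM, and *Ifitm3* at 4383 and 2799 CPM.

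Along a list of 30 type I interferon-stimulated genes, of which *Mx2* had no row, the members separated. *Ifitm3* was at 896 CPM in cells of the library labelled PBS with 0 UMIs of the list and at 2984 CPM in cells with 6 or more, and at 1398 and 4351 CPM in the library labelled DTX. *Ifitm1* in the library labelled DTX was level along the list, at 720, 738, 751 and 661 CPM. In the library labelled PBS *Ifitm1* was at 7.46, 49.2, 52.6 and 64.7 CPM, the first from 67 cells. *Ifitm2* went from 1761 to 2506 CPM between the outer bins in the library labelled DTX. The most abundant gene of the list was *Ifi27l2a*, at 1322 and 1917 CPM in macrophage-like cells. The study names it among markers of its *Ccl7* subset, and its part in these bins was not tested.

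**Figure D4:**
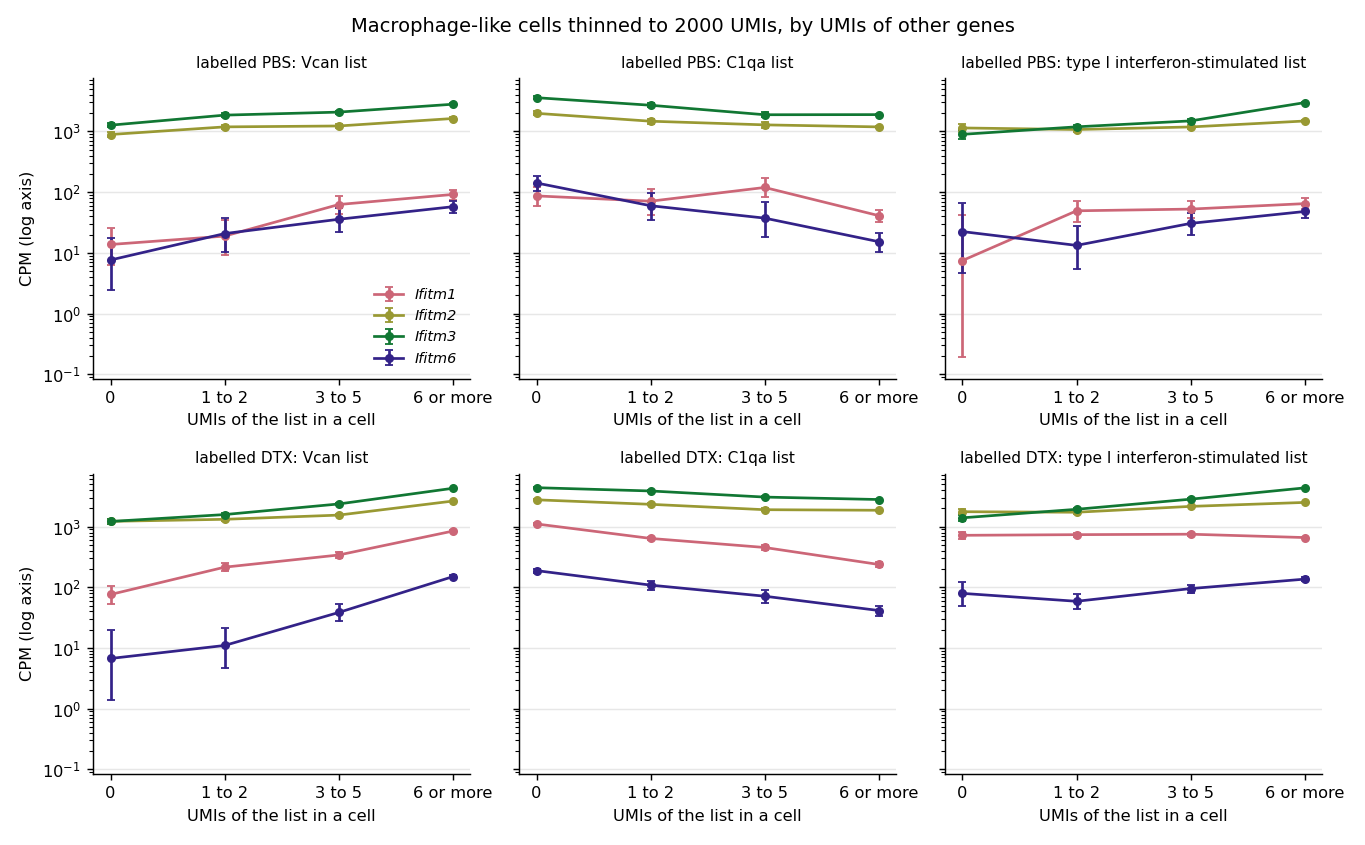
Level of each gene in CPM (log axis) in macrophage-like cells thinned to 2000 UMIs, against the UMIs per cell of 3 gene lists, for the libraries labelled PBS (top) and DTX (bottom) with 95% Poisson intervals. All 4 lines rise along the *Vcan* list in the library labelled DTX, and along the interferon list *Ifitm3* rises while *Ifitm1* stays between 661 and 751 CPM. The members were chosen from the study's *Vcan* marker list.

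The other genes of the interferon response were set beside the members. Of 30 type I interferon-stimulated genes, 29 were measured in macrophage-like cells. A log2 ratio of at least 1 was found for 0 of them, against 1.58% of all genes, and one of at most -1 for 0, against 3.3%. With shares this small, a count of 0 does not set the list apart from all genes. The median of the list was 0.11, beside 0.06 for all genes. The 3 highest were *Oas1a*, a sensor of double-stranded RNA (0.59), *Ifi27l2a*, of the ISG12 family (0.54), and *Ddx58*, the gene of the RNA sensor RIG-I (0.48). The 3 lowest were *Oasl1*, a repressor of *Irf7* translation (-0.72), *Ifi44* (-0.36) and *Rsad2*, the gene of the antiviral enzyme viperin (-0.32). All 4 members, at 0.78 and above, had larger ratios than each of these 29 genes. The members were chosen with this contrast known, so this order is a description and not a test. The list does not hold every interferon-stimulated gene. *Slfn4*, which the study lists as a marker of an *Ifit1*-expressing macrophage subset, was not in it and had a ratio of 1.64. The other markers of that subset were not counted.

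Of 15 interferon-gamma-stimulated genes, 0 had a ratio of at least 1, against 1.58% of all genes. A ratio of at most -1 was found for 2 of them, against 3.3% of all genes. These were *Cxcl9*, a T-cell chemokine, with 61.9 and 12.0 CPM (-2.28), and *Ciita*, the activator of MHC class II genes (-1.06). The median was -0.15. The receptor genes differed little: *Ifnar1* and *Ifnar2*, which form the type I receptor, had ratios of 0.45 and 0.14, *Ifngr1* and *Ifngr2*, which form the interferon-gamma receptor, of 0.33 and 0.08, and *Il10rb*, a chain shared by the type III receptor, of 0.26. *Ifnlr1* had 1 and 5 UMIs. Among interferon ligands, *Ifng* had 240 and 186 UMIs in kept cells, of which 216 and 147 were in NK or T-like cells. *Ifnb1* had 14 and 3 UMIs, and *Ifnk* 23 and 4. *Ifna1*, *Ifna2*, *Ifna4* and *Ifnl2* had 0 in both libraries and *Ifnl3* had 1 and 0.

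Genes whose products act on IFITM proteins were listed as well, and 0 of 5 had a ratio of at least 1, against 1.58% of all genes. *Nedd4*, a ubiquitin ligase of IFITM3, had a ratio of -1.11. *Zdhhc20* and *Zdhhc7*, which attach palmitate, had -0.19 and 0.48, *Zmpste24*, a protease that IFITM proteins cooperate with, 0.21, and *Vapa*, a contact-site protein bound by IFITM3, -0.19.

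**Figure D5:**
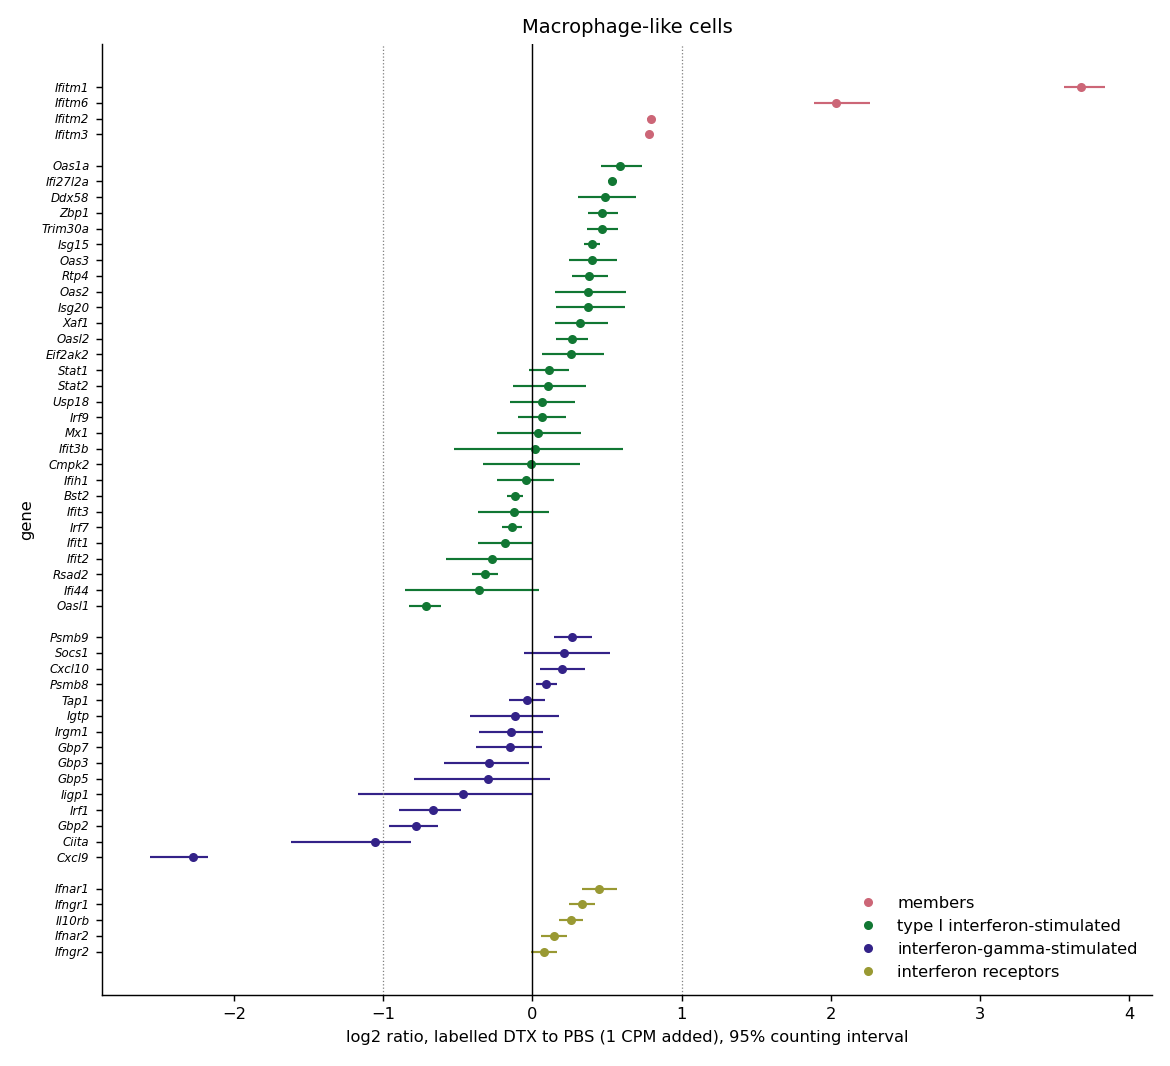
Log2 ratio of the library labelled DTX to that labelled PBS in macrophage-like cells (1 CPM added, 95% counting intervals) for the 4 members, 29 type I interferon-stimulated genes, 15 interferon-gamma-stimulated genes and 5 receptor genes. Dotted lines mark -1 and 1. The members lie at 0.78 to 3.68, to the right of the 29 listed type I interferon-stimulated genes, of which the highest is at 0.59. The members were chosen with this contrast known.

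The type I list behaved differently in other classes. In neutrophil-like cells 11 of 17 measured genes of the list had a ratio of at least 1, against 5.96% of all genes. The median of the list was 1.07 beside -0.11 over all genes, whereas *Ifitm1*, *Ifitm2* and *Ifitm3* had 0.78, 0.31 and 0.63 there. In pericyte-like cells 6 of 16 passed (median 0.75), against 2.22%, and in endothelial-like cells 4 of 15 (median 0.69), against 1.84%. *Ifitm3* had ratios of 0.58 and 0.54 in these classes. In dendritic-like cells 5 of 24 passed, against 1.03%, with a median of 0.55, below the ratios of all 4 members. In epithelial-like cells 4 of 19 passed (median 0.46), against 2.69%, where *Ifitm2* and *Ifitm3* had 0.59 and 0.22. In fibroblast-like cells 0 of 29 passed (median 0.21), against 2.63%, and in NK or T-like cells 0 of 13 (median 0.04), against 1.23%. *Ifitm2* and *Ifitm3* had 0.71 and 0.48 in the latter. In neutrophil-like cells fibroblast markers summed to 2143 and 329 CPM and epithelial markers to 1853 and 388 CPM. The 10 neutrophil markers summed there to 43345 and 90930 CPM, a log2 ratio of 1.07. The part of other cells' RNA in the ratios of neutrophil-like cells was not tested.

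Neutrophil RNA was measured in macrophage-like cells because neutrophil-like cells had the highest *Ifitm1* and *Ifitm2* levels among classes with at least 50 cells. The 10 neutrophil markers together were at 340 CPM in macrophage-like cells of the library labelled PBS and at 552 CPM in that labelled DTX, with 7 of 10 higher. *Il1r2*, which also leads MHC class II-like cluster 5, gave 1550 and 10853 of these UMIs, *Retnlg* 1 and 51 and *Ly6g* 1 and 0. In neutrophil-like cells they were at 43345 and 90930 CPM. There were 9.18 and 7.04 UMIs of *Ifitm1* per 100 UMIs of *S100a8* and *S100a9* in neutrophil-like cells, and 78.9 and 804 in macrophage-like cells. In the 1610 and 3545 macrophage-like cells without a UMI of *S100a8*, *S100a9* or *Retnlg*, *Ifitm1* was at 53.8 and 676 CPM (3.63), *Ifitm6* at 31.5 and 118 CPM (1.87), and the ratios of *Ifitm2* and *Ifitm3* were 0.77 and 0.75. Fibroblast markers summed to 760 and 149 CPM and erythroid genes to 34.8 and 0.33 CPM in macrophage-like cells, and their part in the ratios was not tested.

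The genes most alike in profile were sought by Pearson correlation of log2 CPM over the 17 sums of class and library with at least 50 cells, among 12139 genes. The sums share libraries and differ in depth, and no p-value is given. For *Ifitm1* they were *Hilpda*, a lipid droplet protein, *Cxcl2*, a chemokine that attracts neutrophils, and *Gng10*, a G-protein subunit (0.84 each), *Slc16a3*, a lactate exporter (0.83), and *Slc11a1*, a metal transporter of phagosomes (0.82). For *Ifitm6* they were *Lilrb4a*, an inhibitory receptor (0.96), the chemokine gene *Ccl6* (0.95), and *Trem1*, *Fcgr3* and *Osm* (0.94 each), genes of 2 activating receptors and a cytokine of myeloid cells. For *Ifitm2* they were *Cpne2* and *Nfe2l2*, the latter encoding the oxidative stress regulator NRF2 (0.94 each), and *Washc4*, *Tcn2* and *Tspan31* (0.92 each). For *Ifitm3* they were *App* (0.91), *Tubb6* (0.88), *Bach1* (0.87), *Ywhag* and *Ldlrad3* (0.86 each), none of them a gene of the interferon lists. Among the members, *Ifitm1* and *Ifitm2* were most alike (0.81) and *Ifitm3* and *Ifitm6* least (0.23).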

How the data were processed

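The authors deposited raw UMI counts per gene and cell of 2 libraries (Chromium 3′), made with Cell Ranger against mm10 and not normalized; the file header and the submitters' processing notes give Cell Ranger 6.1.1, and the methods another version. Technical but no biological replicates are stated, and it is not clear if a library joins them. Cells needed 500 or more genes and a mitochondrial share of UMIs of 6% or less. The methods' upper limit of 2000 genes would have left 2522 and 2642 cells and was tried as an alternative. Doublets were called with Scrublet in scanpy 1.11.5. In the library labelled DTX it called only 2, and the 575 highest scores, 8%, were removed instead. Counts were clustered in R 4.3.3 with Seurat 5.3.0 (2000 variable genes, 30 components, resolution 0.2, and 0.5 for macrophage states). A cluster was named after the marker list with most genes among its 10 leading genes, and needed a minimum of raised markers of that list. For macrophage states, no other list could have a larger share of its markers raised. Cluster 3 met these rules for the *Klf2* list, with 2 of its markers among the leading genes, but this name is not used here. 

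UMIs were summed per class and library, expressed as CPM and compared as log2 ratios with 1 CPM added. Intervals are exact Poisson for levels, exact conditional binomial for ratios without the added CPM, and Clopper-Pearson for shares, and cover counting error only. A count of 0 was taken to allow up to 3 counts. Sums, ratios and figures used pandas 2.3.3, numpy 2.4.6, scipy 1.17.1 and matplotlib 3.10.9 (Python 3.11.15). The code of the ratios was checked on simulated Poisson counts. Those counts held no variation between cells, mice or captures, so the check does not cover it. Named genes were the members, other Ifitm rows, the 5 genes most alike to each member among genes with at least 200 UMIs, the 3 highest and 3 lowest type I interferon-stimulated genes, interferon ligands and receptors, and neutrophil markers. Any other gene was named with its values known. The members and lists were chosen with earlier results of these data known.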

Additional observations from a re-analysis of the deposited data

Results flagged for a closer look

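In mast-like cells the direction of 2 members was opposite to that in macrophage-like cells. *Ifitm1* was at 5153 CPM (4833 to 5489) in the library labelled PBS and at 2065 CPM (1837 to 2312) in that labelled DTX, a log2 ratio of -1.32, and *Ifitm2* was at 2261 and 1264 CPM, one of -0.84. *Ifitm3* was higher in the library labelled DTX, at 541 and 932 CPM. The class held 34 and 19 cells, and the difference between classes was not tested. After the data had been seen, these cells were split by whether *Mcpt8* and *Prss34*, protease genes of basophils, had more UMIs than *Mcpt4* and *Cma1*, those of connective tissue mast cells. The cells with more of the former numbered 20 in the library labelled PBS and 5 in that labelled DTX, with *Ifitm1* at 6784 and 8331 CPM, and the others numbered 14 and 14, with *Ifitm1* at 319 and 690 CPM. *Ifitm2* was at 2729 and 2764 CPM in the former and at 871 and 935 CPM in the latter.

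*Ifitm3* in MHC class II-like cluster 0 had a log2 ratio of -0.10 (-0.15 to -0.05), below 0 while that of all macrophage-like cells was above 0. This difference was not tested either, and in the 771 and 357 cells of that state without a UMI of *S100a8*, *S100a9* or *Retnlg* the ratio was -0.05. With states clustered more finely *Ifitm3* was higher in the library labelled DTX in 12 of 12.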

How the results depend on the processing

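All log2 ratios of the 4 members in macrophage-like cells stayed above 0 under every alternative run. With at most 2000 genes per cell they were 3.44 for *Ifitm1*, 0.62 for *Ifitm2*, 0.64 for *Ifitm3* and 1.63 for *Ifitm6*. At the class resolution of 0.4 the ratio of *Ifitm1* was 3.85. With no UMI of *S100a8*, *S100a9* or *Retnlg* those of *Ifitm3* and *Ifitm6* were 0.75 and 1.87, and with cells thinned to 2000 UMIs 0.76 and 1.68. After scaling by the median gene those of *Ifitm2* and *Ifitm3* were 0.73 and 0.72. The cause of these shifts was not tested. Weighting of the states, chosen after the data had been seen, gave 1.81, 0.29, 0.18 and 0.54 for *Ifitm1*, *Ifitm2*, *Ifitm3* and *Ifitm6* with weights of the library labelled PBS and 3.08, 0.37, 0.25 and 0.27 with those of that labelled DTX. Without the *Cd9*-like state these were 1.78, 0.29, 0.18 and 0.54, and 2.62, 0.26, 0.16 and 0.20. By construction, the change of the mix between these states is taken out of these values, but not a change of the mix of cells within a state.

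With at most 2000 genes per cell, 2 classes kept 50 cells in both libraries, and each member was higher in the library labelled DTX in 2 of 2. Shares of cells with a UMI depend on depth: thinned to 1000 UMIs those of the libraries labelled PBS and DTX were 4.51% and 27.8% for *Ifitm1*, 64.7% and 82.2% for *Ifitm2*, 72.0% and 86.3% for *Ifitm3* and 2.49% and 9.27% for *Ifitm6*. Without thinning they were 13.3% and 52.2%, 91.2% and 97.9%, 89.8% and 97.6%, and 8.29% and 31.3%. With at most 2000 genes per cell, 1 of 28 measured type I interferon-stimulated genes had a ratio of at most -1. Without this limit 3.3% of all genes did. The states with a higher level of *Ifitm1*, *Ifitm2*, *Ifitm3* and *Ifitm6* in the library labelled DTX were 7, 7, 6 and 7 of 7, with finer states 11, 12, 12 and 11 of 12, and with thinned cells 7, 7, 6 and 6 of 7.

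No paired analysis was possible because each group had 1 library, and for the same reason no library was left out. Depth limits *Ifitm6*, of which 5 of 8 classes had under 50 UMIs, and the neutrophil-like cells of the library labelled PBS, of which 11 of 129 had 2000 UMIs.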

Other observations

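Within NK or T-like cells, a small cluster led by *Cd3g* and *Trdc*, genes of the T-cell receptor complex and of its delta chain, had 0 *Ifitm1* UMIs in 41 cells of the library labelled PBS and 31 UMIs in 29 cells of that labelled DTX, or 161 CPM. The larger cluster led by the granzyme gene *Gzma* had 18.5 and 34.0 CPM. Langerhans-like cells, marked by *Cd207*, were at 469 and 835 CPM for *Ifitm2* and at 174 and 187 CPM for *Ifitm3*, from 123 and 37 cells.

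The unnamed macrophage state of 54 cells in the library labelled DTX, led by *Ctsk*, *Acp5* and *Mmp9*, had the lowest *Ifitm1* level of all states in that library, 28.0 CPM.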
